A study of Caenorhabditis elegans with 8 samples.

Results

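The proteasome subunit genes of *Caenorhabditis elegans* were taken as every gene of the deposited table whose symbol starts with *pas-*, *pbs-*, *rpt-* or *rpn-*. This gave 33 of the 17521 genes, 14 for the core particle (7 *pas-* and 7 *pbs-*) and 19 for the regulatory particle (6 *rpt-* and 13 *rpn-*). The values are from RNA sequencing of whole N2 worms, the wild-type laboratory strain, collected at day 1 of adulthood. Worms of 4 samples were kept for 24 h, from the L4 larval stage, on plates with 50 μM atracurium, a neuromuscular blocker that antagonizes the acetylcholine receptor, and worms of 4 samples on plates with its water vehicle. The paper names 5-fluorouracil, which disrupts progeny, for the plates of its lifespan and healthspan assays, but not separately for those of the RNA samples. Each sample held about 1000 worms. The comparison asks how atracurium alters gene expression, and here what it does to the transcripts of the proteasome.

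The proteasome degrades proteins that carry ubiquitin. Its core particle is a barrel in which rings of alpha subunits (PAS) form the gate and rings of beta subunits (PBS) hold the proteolytic sites. The regulatory particle caps the barrel, with RPT ATPases that unfold the substrate and RPN subunits that bind ubiquitin, remove it and hold the particle together. Its activity has been tied to stress resistance and long life in worms, and *rpn-6.1* in particular to DAF-16, the worm FOXO factor, in animals that lack a germ line. When the proteasome is impaired, the SKN-1A form of SKN-1 raises the transcription of its subunits.

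No proteasome subunit gene passed the test for a difference between the groups. Of the 33 genes, 0 had an adjusted p under 0.05 in limma with a mean-variance trend (limma-trend, Benjamini-Hochberg over all genes), where 0.177% of all genes did, and 0 of 33 had one by limma-voom or any other setting tried. At an unadjusted p below 0.01, 0 of 33 passed, against 3.07% of all genes, and at an unadjusted p below 0.05 only *rpn-1* did, against 11.5% of all genes. The log2 fold changes (atracurium minus water, on the log2 CPM scale, where CPM is reads scaled to a common library size) lay between −0.11 for *pas-2* and 0.13 for *rpn-1*, with standard errors of 0.053 to 0.090. The 95% intervals of all 33 genes lay within −0.25 and 0.25 on this scale, that is between −15.7% and 19.0% with atracurium. The log2 fold changes of 32 of the 33 genes could not be told from 0 by these intervals, and larger changes in either direction lay outside them.

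The genes were well measured. The 8 libraries held 27922986 to 60015200 reads over the 17521 genes, and in each of them every subunit except *rpn-6.2* had between 4462 and 27347 reads, and *rpn-6.2* had 621 to 1735. The spread between samples of a group (pooled SD of the log2 CPM, 4 samples in each group) had a median of 0.080 over the 33 genes and ranged from 0.054 for *rpn-5* to 0.14 for *pbs-1* and *pbs-2*. Over all genes, most of which have far fewer reads, the median was 0.22. The samples were grown separately, but whether they came from separate starting cultures is not stated in the sources used here, so p-values measure only the spread between these samples, which may be technical.

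In sum, the 33 genes took 0.893% to 0.976% of the normalized library in the water samples, 9292 ± 351 CPM (SD, n = 4), and 0.910% to 0.977% in the atracurium samples, 9412 ± 278 CPM (SD, n = 4). The groups overlapped over almost their whole range. Core genes summed to 3741 ± 121 CPM in water and 3626 ± 219 CPM with atracurium (SD, n = 4). Regulatory genes summed to 5551 ± 254 CPM in water and 5787 ± 187 CPM with atracurium (SD, n = 4). In whole worms, fewer cells of a type and less RNA per cell cannot be told apart.

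**Figure D1:**
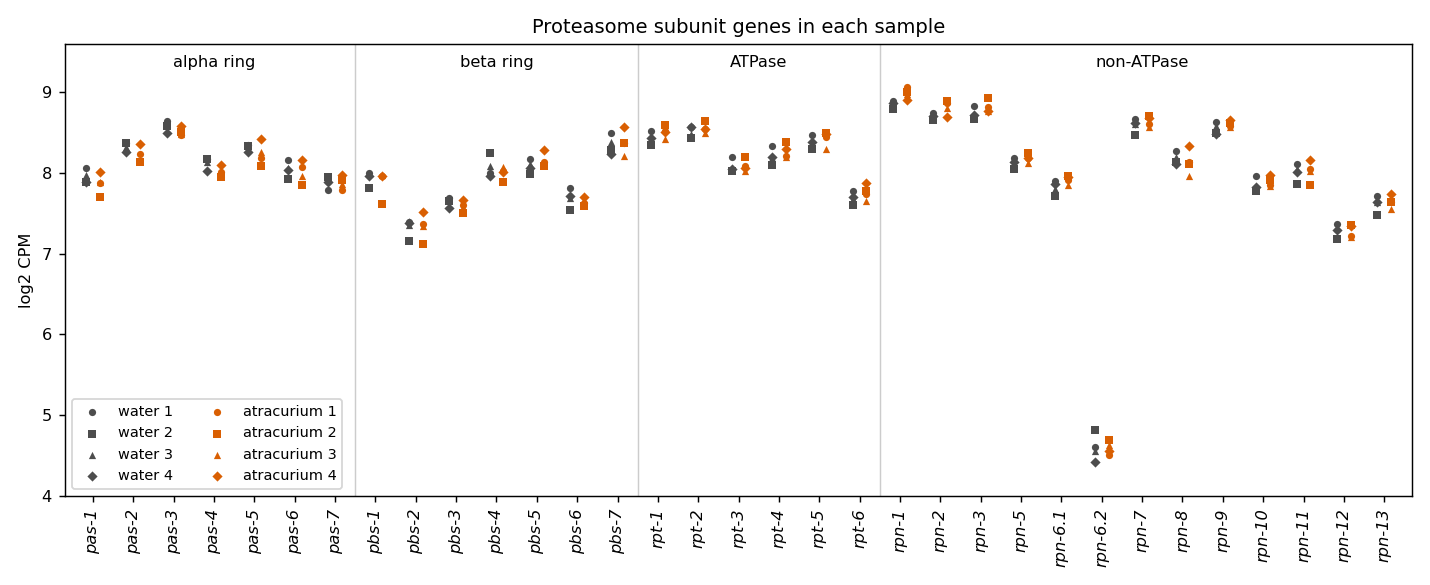
log2 CPM (y axis) of the 33 proteasome subunit genes (x axis, by ring or role), a point per sample, water in grey and atracurium in orange with a marker shape per replicate. All genes except *rpn-6.2* lie between 7.12 and 9.07, and the groups overlap for each gene except *rpn-1*.

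Transcript levels of most subunits lay close together. Per kilobase of exon, which adjusts in part for gene length, the mean log2 CPM over the 8 samples was highest for *pas-3*, at 8.71, followed by *pbs-7* at 8.56, *pas-2* at 8.52 and *pas-5* at 8.50. The lowest levels on this scale, apart from *rpn-6.2*, were those of *rpn-13* (7.05), *rpn-2* (7.10) and *rpn-6.1* (7.15). The 32 genes other than *rpn-6.2* thus spanned a 3.16-fold range of level per length. Core genes had a median of 8.12 and regulatory genes without *rpn-6.2* a median of 7.67, a 1.37-fold difference in level per kilobase of exon and a 1.41-fold difference per kilobase of coding sequence. Core genes are also the shorter ones, and the part of length in this difference was not tested. Within the beta ring, *pbs-2* was the lowest at 7.32 and the others lay between 7.85 and 8.56. Neighbours in this order were often closer than the spread between samples, as *pas-2* and *pas-5* were.

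The exception was *rpn-6.2* (WBGene00010309; chromosome III of WBcel235 from 8999817 to 9001999), annotated in the table as a probable regulatory subunit like *rpn-6.1*. Its log2 CPM was 4.60, 4.82, 4.56 and 4.42 in the water samples and 4.51, 4.69, 4.63 and 4.56 in the atracurium samples, replicates 1 to 4. All 8 samples were low and the groups overlapped, with a log2 fold change of −0.0014 (95% interval −0.20 to 0.19). Per kilobase of exon, *rpn-6.1* stood 9.16-fold above it. Both are related genes, and whether reads that match both were left out by the authors' counting was not tested.

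**Figure D2:**
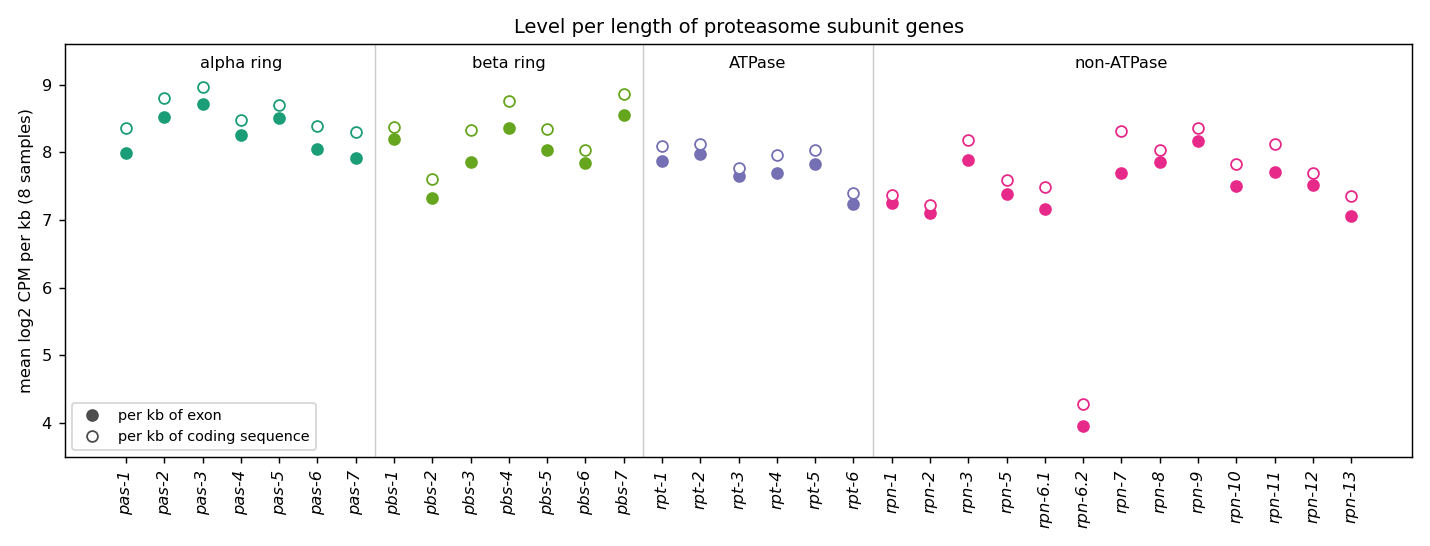
Mean log2 CPM per kilobase over the 8 samples (y axis) for each subunit gene (x axis), filled points per kilobase of exon and open points per kilobase of coding sequence. *rpn-6.2* lies at 3.96 per kilobase of exon and the other 32 genes between 7.05 and 8.71.

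In the alpha ring, which gates the barrel, 6 of 7 genes had a log2 fold change below 0, where 52.3% of all genes did, and *pas-7* had 0.0023. The median was −0.077, beside −0.0097 over all genes, and 0 of 7 passed the test. After removal of a trend with gene length, described below, 3 of 7 were below 0 and the median was 0.0063. The alpha genes with the smallest p were *pas-4* and *pas-2*. The log2 CPM of *pas-4* (WBGene00003925; chromosome I from 8727218 to 8728487) was 8.17, 8.17, 8.14 and 8.02 in water replicates 1 to 4, and 8.02, 7.96, 8.0 and 8.11 with atracurium. Water replicate 4 was almost as low as atracurium replicate 1, and atracurium replicate 4 lay among the water samples, so the groups overlapped. The difference, −0.11 on the log2 scale (95% interval −0.23 to 0.016), had an adjusted p of 0.475 by limma-trend.

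*pas-2* (WBGene00003923; chromosome V from 10770368 to 10771351) had a log2 CPM of 8.37, 8.37, 8.32 and 8.26 in water and of 8.24, 8.13, 8.15 and 8.36 with atracurium. Of the atracurium samples 3 were below all water samples and replicate 4 was not. The log2 fold change was −0.11 (95% interval −0.25 to 0.022, adjusted p = 0.488 by limma-trend). For *pas-3* (WBGene00003924; chromosome I from 5105110 to 5106048), the subunit with the highest level per length, the log2 CPM was 8.65, 8.58, 8.62 and 8.50 in water and 8.48, 8.51, 8.48 and 8.58 with atracurium. The lowest water sample lay below 2 of the atracurium samples, and the log2 fold change was −0.073 (95% interval −0.19 to 0.045).

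In the beta ring, 4 of 7 genes had a log2 fold change below 0 and 3 above, with a median of −0.057 and 0 of 7 past the test. After removal of the length trend all 7 were above 0, where 50.9% of all genes were, with a median of 0.035. By their numbering, PBS-1, PBS-2 and PBS-5 carry the proteolytic sites, which cut after acidic, basic and hydrophobic residues, respectively. In *pbs-5* (WBGene00003951; chromosome I from 14719167 to 14720477) the log2 CPM was 8.17, 7.99, 8.11 and 8.06 in water and 8.13, 8.09, 8.10 and 8.29 with atracurium. Only atracurium replicate 4 was above all water samples. The log2 fold change of 0.071 (95% interval −0.064 to 0.21, adjusted p = 0.653 by limma-trend) was the highest of the core.

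For *pbs-2* (WBGene00003948; chromosome I from 12967216 to 12968280) the log2 CPM was 7.40, 7.16, 7.36 and 7.39 in water and 7.37, 7.12, 7.35 and 7.52 with atracurium. In both groups replicate 2 was the lowest. Its log2 fold change was 0.014 (95% interval −0.17 to 0.20). *pbs-1* (WBGene00003947; chromosome IV from 1708814 to 1709745) had a log2 CPM of 8.0, 7.81, 8.0 and 7.97 in water and of 7.96, 7.61, 7.98 and 7.96 with atracurium. Atracurium replicate 2 stood apart from the rest, and the log2 fold change of −0.065 became 0.023 without it. The 3 catalytic subunit genes thus lay on both sides of 0, and the interval of each spanned 0.

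In the regulatory particle, 16 of 19 genes had a log2 fold change above 0, where 47.7% of all genes did, and the median was 0.051. All 6 ATPase genes were on this side, from 0.017 for *rpt-3* to 0.068 for *rpt-1*, with a median of 0.057 and the interval of each spanning 0. None of the 19 passed the test. Among the 13 non-ATPase genes, *rpn-8*, which pairs with the deubiquitinase RPN-11, had the lowest value (−0.043), and *rpn-12* (−0.0054) and *rpn-6.2* were the others below 0.

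The subunit with the smallest p was *rpn-1* (WBGene00004458; chromosome IV from 6906420 to 6909913), a large scaffold of the base that docks ubiquitin receptors. Its log2 CPM was 8.896, 8.794, 8.864 and 8.864 in water replicates 1 to 4, and 9.067, 9.005, 8.977 and 8.905 with atracurium. The atracurium samples were all above the water samples, but replicate 4 only narrowly, and *rpn-1* was the only subunit whose groups did not overlap, while over all genes 7.16% did not (3.41% higher and 3.75% lower with atracurium). The log2 fold change was 0.13 (95% interval 0.016 to 0.25, unadjusted p = 0.029, adjusted p = 0.387 by limma-trend). Its unadjusted p passed 0.01 with sample weights (0.00567), without atracurium replicate 4 (0.00948) and without replicates 2 and 4 together (0.00744), and its adjusted p lay between 0.132 and 0.812 over all settings.

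*rpn-2* (WBGene00004459; chromosome III from 6199184 to 6202594), the other large scaffold of the base, had a log2 CPM of 8.75, 8.66, 8.71 and 8.70 in water and of 8.86, 8.90, 8.80 and 8.69 with atracurium. Of the atracurium samples 3 were above all water samples, and replicate 4 was not. The log2 fold change was 0.11 (95% interval −0.018 to 0.23, adjusted p = 0.478 by limma-trend). *rpn-3* (WBGene00004460; chromosome III from 8447353 to 8449346), of the lid, had a log2 CPM of 8.83, 8.67, 8.71 and 8.72 in water and of 8.82, 8.93, 8.77 and 8.77 with atracurium. Its log2 fold change was 0.092 (95% interval −0.035 to 0.22), and water replicate 1 lay among the atracurium samples.

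*rpn-6.1* (WBGene00004462; chromosome III from 6959110 to 6962001) encodes the lid subunit that clamps the regulatory to the core particle. Its log2 CPM was 7.91, 7.72, 7.81 and 7.87 in water and 7.91, 7.97, 7.86 and 7.95 with atracurium. The atracurium samples lay at the upper end of the range, but water replicates 1 and 4 were above atracurium replicate 3 and the groups overlapped. The log2 fold change was 0.098 (95% interval −0.025 to 0.22, adjusted p = 0.503 by limma-trend), that is between −1.71% and 16.6%. With each sample left out in turn it lay between 0.064 and 0.13, and its adjusted p was never below 0.403 in any setting.

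For the subunits that handle ubiquitin the values were close to 0 too. The log2 CPM of *rpn-10* (WBGene00004466; chromosome I from 10730712 to 10732424), a ubiquitin receptor, was 7.96, 7.78, 7.84 and 7.83 in water and 7.86, 7.91, 7.84 and 7.98 with atracurium, a log2 fold change of 0.044 (95% interval −0.081 to 0.17). *rpn-11* (WBGene00004467; chromosome II from 4043055 to 4044546), the metalloprotease that cuts ubiquitin chains off the substrate, had a log2 CPM of 8.12, 7.87, 8.05 and 8.02 in water and of 8.05, 7.86, 8.03 and 8.17 with atracurium. Its log2 fold change was 0.014 (95% interval −0.15 to 0.17), and replicate 2 was the lowest in both groups. *rpn-13*, another ubiquitin receptor, had a log2 fold change of 0.026.

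**Figure D3:**
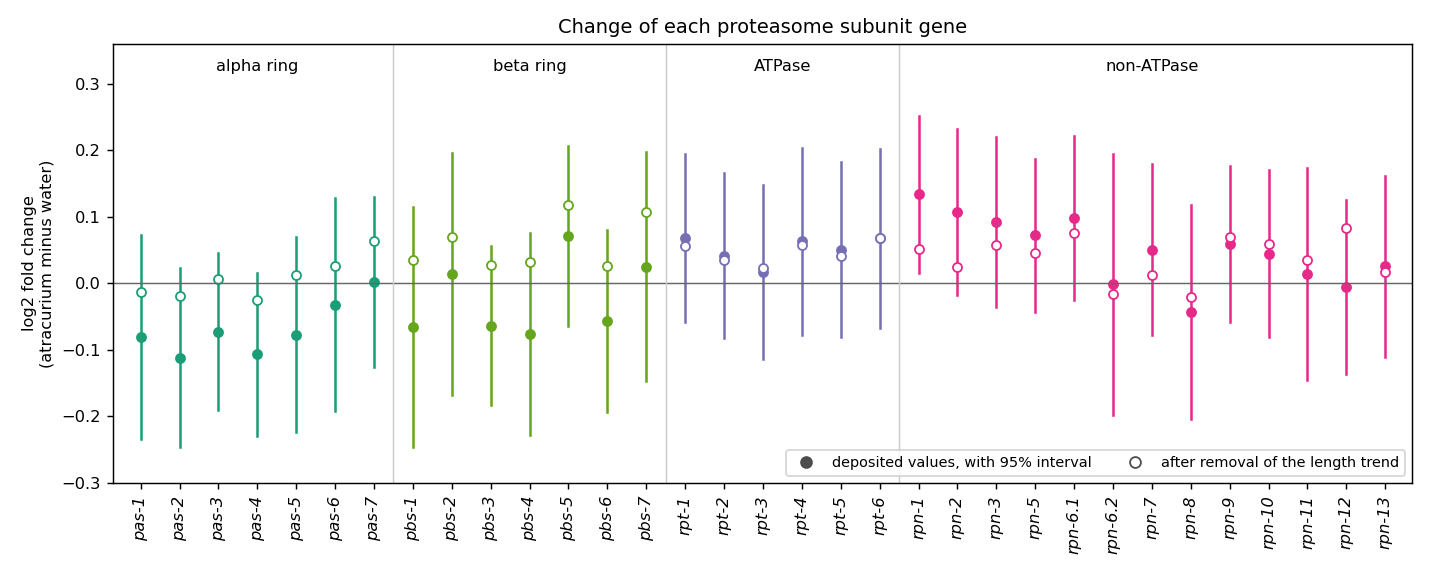
log2 fold change of each subunit gene (y axis, atracurium minus water; genes on the x axis), filled points with 95% intervals from the deposited values and open points after removal of the trend with gene length. Only the interval of *rpn-1* leaves out 0, and the open points of the core genes lie higher than the filled ones.

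The particles sat on different sides of 0. The median log2 fold change was −0.065 for the core and 0.051 for the regulatory particle, with 10 of 14 core genes below 0 and 16 of 19 regulatory genes above it. With all samples set to 1 shared median, which moved the median of all genes from −0.0097 to 0.054, the core median was −0.0012 and the regulatory median 0.11. Quantile normalization gave −0.11 and 0.012, with a median of 0.017 over all genes. Removal of the length trend put both above 0, at 0.027 for the core and 0.045 for the regulatory particle, with 0.0031 over all genes. Because the particles were chosen with results of these data known, these medians are a description and carry no test.

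The particles also differ in gene length. Exonic lengths of the core genes ran from 801 to 1059 nt with a median of 880.5 nt, and those of the regulatory genes from 855 to 3171 nt with a median of 1493 nt, with *rpn-12* the only regulatory gene no longer than the longest core gene. Longer subunit genes had the higher fold changes, with a Spearman correlation of 0.837 between log2 fold change and exonic length over the 33 genes, which share the same 8 libraries. The 6 genes above 1600 nt, *rpn-1*, *rpn-2*, *rpn-3*, *rpn-5*, *rpn-6.1* and *rpn-7*, all had values above 0, with a median of 0.095. The same order was present inside the core (0.539 over 14 genes) and inside the regulatory particle (0.725 over 19 genes).

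A trend with gene length was present over all genes in these libraries, and it differed in part between the groups. After it was removed in each sample, the correlation over the 33 genes was 0.130 and the medians were 0.027 for the core and 0.045 for the regulatory particle, so the gap between them went from 0.12 to 0.018. By then 28 of the 33 log2 fold changes were above 0, among them 11 of 14 in the core, where 50.9% of all genes were, and all lay between −0.025 for *pas-4* and 0.12 for *pbs-5*. None passed an adjusted p of 0.05 (lowest adjusted p = 0.600 by limma-trend, for *pbs-5*), and the log2 fold change of *rpn-1* was 0.051. Because nearly all regulatory genes are longer than every core gene, particle and gene length cannot be told apart here. The removal would also shrink a difference that belonged to the particles, or an effect of atracurium that followed gene length.

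**Figure D4:**
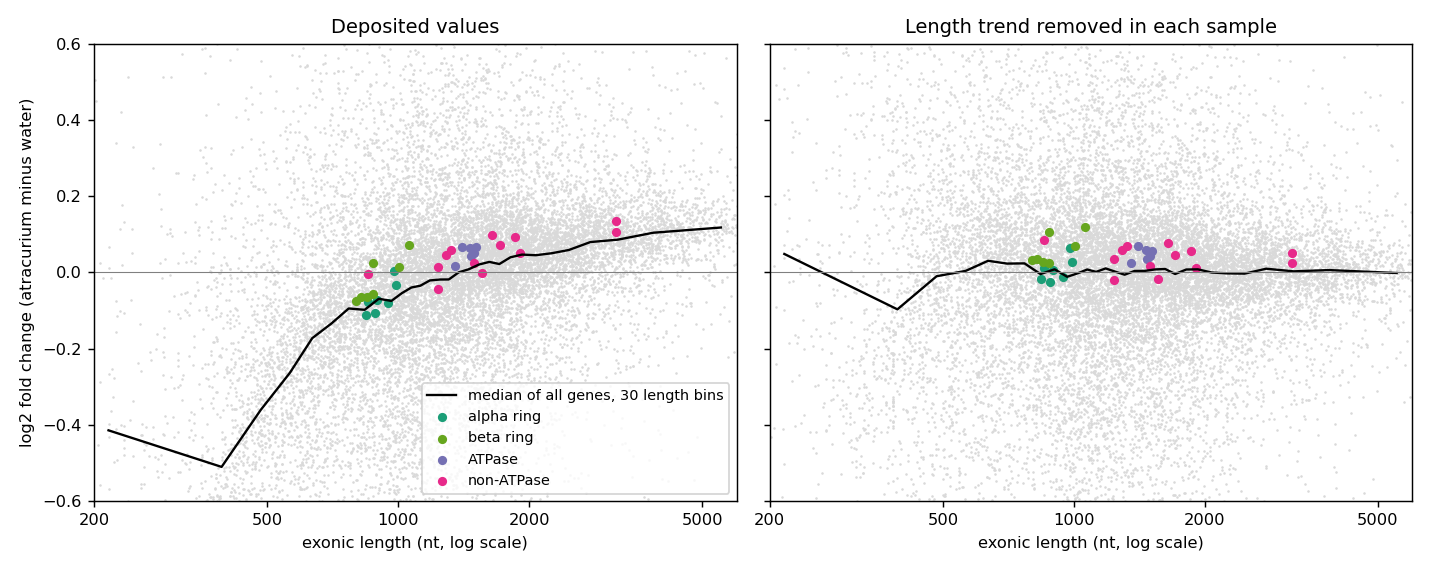
log2 fold change (y axis) against exonic length in nt (x axis, log scale), all genes in grey with their median in length bins as a black line and subunit genes in colour by role. In the left panel, with the deposited values, the short core genes (801 to 1059 nt) and the longer regulatory genes follow the line, and in the right panel, with the length trend removed, both lie near or just above 0.

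The gap between the particles differed from library to library. For each sample the median was taken over the genes of a particle, each gene relative to its own mean over the 8 samples, and the regulatory minus the core median was −0.036, −0.11, −0.085 and −0.012 in water replicates 1 to 4 and 0.036, 0.22, −0.0075 and −0.028 with atracurium. Atracurium replicate 2 was far above the rest, while replicates 3 and 4 lay within or next to the range of the water samples, so the groups overlapped. A straight line on log2 exonic length was fitted in the same samples to genes with a mean log2 CPM above 0. Its slope was −0.043, −0.12, −0.056 and −0.056 per doubling of length in water and 0.054, 0.25, 0.019 and −0.049 with atracurium. The trend that was removed was a smooth curve, not this line. Because each gene was taken relative to its mean over the 8 samples, the mean slopes mirrored each other, at −0.0675 in water and 0.0675 with atracurium. The slope thus went in part with treatment, though that of atracurium replicate 4 lay within the range of the water samples. Samples with the highest and the lowest slope also had the highest and the lowest gap. With the length trend removed the gap was −0.038 to 0.018 in water and −0.028 to 0.039 with atracurium.

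Atracurium replicate 2 had the lowest value of all 8 samples in 9 of the 14 core genes and the highest in 10 of the 19 regulatory genes. Water replicate 2, the deepest library, had the lowest value in 15 of the 19 regulatory genes. Atracurium replicate 4 had the highest value in 12 of the 33 genes, 6 in each particle. Without atracurium replicate 2 the medians were −0.025 for the core and 0.040 for the regulatory particle, without water replicate 2 they were −0.071 and 0.026, and without atracurium replicate 4 they were −0.085 and 0.036. Without atracurium replicates 2 and 4 together they were −0.063 and 0.0024.

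**Figure D5:**
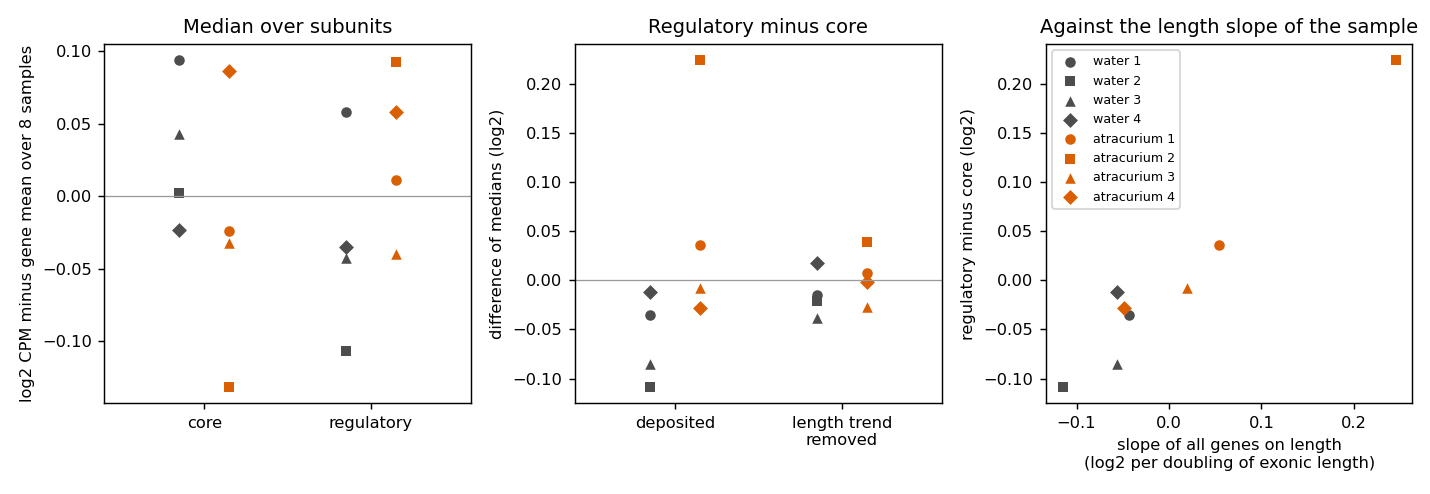
Left, the median over core or regulatory genes of log2 CPM minus each gene's mean, a point per sample. Middle, the regulatory minus the core median (log2) with deposited values and with the length trend removed. Right, that difference against the slope on length in the same sample (log2 per doubling). The slope is labelled as of all genes but was fitted to those with a mean log2 CPM above 0. Atracurium replicate 2 stands apart at 0.22 and a slope of 0.25, and falls to 0.039 when the trend is removed.

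Markers of tissues were measured beside the subunits. Of 35 sperm genes (major sperm protein and *spe-* genes) 34 were in the table, and their summed level was 188 to 227 CPM in water and 85.6 to 183 CPM with atracurium, without overlap, with 17 of them lower at an unadjusted p below 0.01 (3.07% of all genes in either direction) and 0 at an adjusted p below 0.05 (0.177% of all genes). The 4 body wall muscle markers summed to 1474 to 1691 CPM in water and 1781 to 1963 CPM with atracurium, again without overlap. By limma-trend 2 of the 4 were higher at an unadjusted p below 0.01 and 0 passed an adjusted p of 0.05. The median log2 fold change was 0.21 for the muscle markers and 0.17 for the intestinal ones. All 4 muscle, 6 intestinal, 7 germ line and 4 hypodermal markers were above 0, and 2 of the 4 neuronal ones. Sums of the 7 germ line and oocyte markers (4955 to 5384 CPM and 5193 to 5773 CPM), the 6 intestinal, the 4 neuronal and the 4 hypodermal markers overlapped between the groups, and no marker was at 0 in all samples. Marker sums and p-values used the deposited values, with the trend with gene length left in, and its part in them was not tested. The part of the markers in the values of the subunits was not tested either.

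Of a list of 27 genes that assist, supply or regulate the proteasome 24 were in the table (*ecps-1*, *ecps-2* and *psme-3* were not analysed here), and 0 of them passed an adjusted p of 0.05 by limma-trend (lowest adjusted p = 0.316) or by limma-voom. At an unadjusted p below 0.01 only *wdr-23* passed, on the higher side, against 3.07% of all genes. The median log2 fold change of the 24 genes was 0.036, with 14 above 0 and 10 below. At an unadjusted p below 0.05 there were 5 of the 24, against 11.5% of all genes, and the groups did not overlap for 2 of the 24, *wdr-23* (higher) and *npl-4.1* (lower), against 7.16% of all genes.

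*wdr-23*, which promotes the degradation of SKN-1, had a log2 CPM of 6.96, 6.94, 6.96 and 6.99 in water and of 7.09, 7.15, 7.11 and 7.11 with atracurium. Its groups did not overlap and its log2 fold change was 0.15 (standard error 0.049, unadjusted p = 0.00879, adjusted p = 0.316 by limma-trend, 0.139 to 0.716 over the other settings). After removal of the length trend it was 0.074. *skn-1* itself, which acts on subunit genes as SKN-1A, had a log2 fold change of 0.094 (95% interval −0.027 to 0.22) and of 0.017 after removal of the length trend. Its reads were counted per gene, which does not separate the SKN-1A form.

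The SKN-1A list of 6 genes, *wdr-23* and *skn-1* included, had 4 log2 fold changes above 0 and 2 below, with a median of 0.064. Since *wdr-23* promotes the degradation of SKN-1, this count and median are no readout of SKN-1A activity. The glycanase gene *png-1* had a log2 fold change of −0.040 (95% interval −0.20 to 0.12) and the protease gene *ddi-1* one of −0.053 (95% interval −0.20 to 0.095). The other members of this list, *sel-11* and *sel-1*, which act in protein degradation at the endoplasmic reticulum, had 0.12 (95% interval −0.0032 to 0.23) and 0.034 (95% interval −0.081 to 0.15). After removal of the length trend *sel-11* had 0.070 and *sel-1* had −0.025. The proteasome-associated factor gene *aip-1* had −0.064 (95% interval −0.26 to 0.13), and the deubiquitinase gene *ubh-4* had −0.052 (95% interval −0.17 to 0.063).

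The other 4 related genes with an unadjusted p below 0.05 were picked out after their values were seen, and none passed an adjusted p of 0.05. The genes of the CDC-48 segregase, which pulls ubiquitinated proteins out of complexes, had log2 fold changes of 0.14 for *cdc-48.1* (adjusted p = 0.422) and 0.17 for *cdc-48.2* (adjusted p = 0.378), both by limma-trend, and 0.066 and 0.11 after removal of the length trend. The gene of a cofactor of this enzyme, *npl-4.1*, had −0.22 (adjusted p = 0.401 by limma-trend) and was at −0.24 after the removal. Its log2 CPM in atracurium replicate 2 was 4.66, beside 5.00 to 5.04 in the other atracurium samples. The like-named *npl-4.2*, which did not reach an unadjusted p of 0.05, had 0.070 (95% interval −0.088 to 0.23). Its highest log2 CPM, 5.71, was in that same replicate. For *dss-1*, a short gene of 547 nt for a small lid subunit that the symbol rule leaves out, the log2 CPM was 6.82, 7.27, 7.05 and 7.22 in water and 6.82, 5.87, 6.93 and 6.82 with atracurium. Atracurium replicate 2 was far below the rest. The log2 fold change was −0.48 (95% interval −0.90 to −0.066, adjusted p = 0.380 by limma-trend), −0.24 without that sample and −0.20 after removal of the length trend. The ubiquitin fusion gene *ubq-2*, of 435 nt, was also lowest in that sample, at a log2 CPM of 8.50 beside 9.45 to 9.86 in the other atracurium replicates, and its log2 fold change of −0.41 (95% interval −0.87 to 0.044) was −0.023 after removal of the length trend.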

How the data were processed

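Polyadenylated RNA of 8 whole-worm samples was sequenced, and groups and replicate numbers came from the labels. Reads were trimmed with Trimmomatic 0.32, aligned to WBcel235 (Ensembl release 91) with HISAT2 2.1.0 and assigned to genes, strand by strand, with HTSeq 0.11.0. The authors dropped genes that did not exceed 2 reads in 3 or more samples, and deposited log2 CPM from edgeR with TMM scaling of library sizes. Headers say CPM, but values reach down to −4.15, a floor shared by all samples, so the deposited values are on the log2 scale. Above the floor, 100% of them came within 0.1 of a whole number of reads, which gave the depth and the input of limma-voom.

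All genes were fitted with limma 3.58.1 in R 4.3.3 (limma-trend, two-sided, Benjamini-Hochberg adjustment), tested on simulated data. Lengths and coordinates came from Ensembl release 115 of WBcel235, where 33 of 33 subunit genes were found. For the length trend, a lowess (span 0.3) of each sample's deviations on log2 exonic length was subtracted over 17493 genes. Sample values are given for the catalytic subunits, *rpn-6.1*, *rpn-6.2*, *rpn-10*, *rpn-11*, the 6 members with the smallest p, and the highest and lowest per length. Related genes named are those with an unadjusted p below 0.01 and *skn-1*, *png-1*, *ddi-1*, *aip-1* and *ubh-4*. The genes *sel-1*, *sel-11*, *cdc-48.1*, *cdc-48.2*, *npl-4.1*, *npl-4.2*, *dss-1* and *ubq-2* were added after their values were seen. Members, lists and alternatives were chosen with earlier results of these data known, and leaving out 2 samples together was added after the data were seen. Alternatives were limma without the trend, robust moderation, sample weights, limma-voom, samples set to a shared median, quantile normalization, only genes above a log2 CPM of 0 in 4 or more samples, the replicate block, the length trend removed, and each sample left out.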

Additional observations from a re-analysis of the deposited data

Results flagged for a closer look

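In 2 of the 66 groups of 4 samples (33 genes in 2 groups), a sample lay farther from the others than Dixon's 95% critical value for 4 samples allows, and chance flags about 1 in 20 groups. *pbs-1* had a log2 CPM of 7.61 in atracurium replicate 2, where the other atracurium samples lay between 7.96 and 7.98. *rpt-3* had a log2 CPM of 8.20 in water replicate 1, where the other water samples lay between 8.02 and 8.05.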

How the results depend on the processing

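Under all 18 alternatives 0 of the 33 subunit genes passed an adjusted p of 0.05, and the regulatory median stayed above the core median. At an unadjusted p below 0.01, 1 subunit (*rpn-1*) passed as higher with sample weights and without atracurium replicates 2 and 4 together, and 0 to 1 with each sample left out in turn. The regulatory median was 0.11 with a shared median. With the length trend removed the core median was 0.027 and the regulatory minus the core median 0.018. Related genes at an unadjusted p below 0.01 were 2 with sample weights (*cdc-48.2*, *wdr-23*), 2 without atracurium replicates 2 and 4 together (*cdc-48.2*, *ubq-2*), 0 to 2 with each sample left out, and 0 without the trend, with robust moderation, a shared median, quantile normalization, the length trend removed or the replicate block. Same-numbered samples had correlations of −0.13 to 0.11 and only 2 of 8 correlated best with their own number. No pairing by number was seen, but with 4 samples a group these correlations cannot decide whether samples shared a culture or batch. The replicate block gave 0 subunit genes at an adjusted p below 0.05, as without it. Of 594 log2 fold changes of single subunits under the alternatives, 57 changed sign, all of values that did not pass the test. Per kilobase of coding sequence all levels were higher than per kilobase of exon, as they must be, because coding sequence is part of the exons. On that scale *pas-3* was still the highest (8.97). The lowest apart from *rpn-6.2* was then *rpn-2* (7.23), with *rpn-13* at 7.35. With 4 samples a group the intervals reached up to 0.20 to either side, and the part of depth in their width was not tested.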
